A study of Homo sapiens with 12 samples.

Results

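S100 genes encode a family of small calcium-binding proteins, and 6 of them were examined in MOLM-13 cells: S100A8, S100A9, S100A12, S100A4, S100A6 and S100A11. They were chosen by name, with earlier results of these data known, and are 6 of the 46639 gene symbols in the data. MOLM-13 is a human acute myeloid leukemia line, purchased as an established line, with a translocation that fuses MLL to AF9. RNA was sequenced from 12 libraries, 3 of each of 4 groups: untreated cells, cells given 100 nM decitabine (DAC), cells given 1 µM all-trans retinoic acid (ATRA), and cells given both drugs at these doses (DAC+ATRA). DAC is a nucleoside analog that inhibits DNA methyltransferases and thereby lowers DNA methylation. ATRA activates the retinoic acid receptors. Cells of all groups are described as grown in medium with fetal calf serum and GM-CSF, a myeloid growth factor. The study's supplemental methods name fetal calf serum but no GM-CSF, and which holds for these libraries is not settled. DAC was renewed each day, whereas the study's methods describe ATRA as added later than the first DAC dose. The labels give 72 h for all treated libraries but 96 h for the untreated ones, and another part of the record names 72 h for the harvest. In every comparison with untreated cells, drug treatment and this difference in the labels cannot be told apart. The libraries of a group are technical replicates of 1 cell line, so p-values measure only the spread between these libraries. No vehicle-treated library was analysed here.

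S100 proteins pair up and change shape when calcium binds, which exposes a surface that grips target proteins. S100A8, S100A9 and S100A12 are the calgranulins, which neutrophils and monocytes make in large amounts. S100A8 and S100A9 form a heterodimer known as calprotectin, which binds zinc and manganese, and all 3 calgranulins act outside the cell as inflammatory ligands of TLR4 and of the receptor AGER. S100A4, S100A6 and S100A11 are made by many cell types and bind, respectively, non-muscle myosin, the ubiquitin ligase component CACYBP, and annexins.

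The libraries held 4.67 to 11.9 M recovered reads (M stands for mega). Libraries of both groups with DAC were shallower, at 4.67 to 6.95 M for DAC and 5.61 to 7.16 M for DAC+ATRA, than those of untreated cells at 8.95 to 11.9 M and ATRA at 8.36 to 10.7 M. Values are normalised counts, which are reads divided by the size factor of the library. All 7 myeloid markers examined, CD33, PTPRC, SPI1, MPO, FLT3, CSF3R and CEBPA, had reads in all 12 libraries, with a median of at least 10 normalised counts each. Their summed level was 30065 to 33671 normalised counts, 36099 to 50197, 15561 to 16453 and 27779 to 28066 in untreated, DAC, ATRA and DAC+ATRA libraries. Of 15 markers of other cell types, CD2, MS4A1, CDH1 and COL3A1 were among those that had no read in any library. CD3D, CD79A, KRT18 and COL1A1 had reads in all 12, and COL1A1, with COL3A1 at 0, brought the summed level of 3 fibroblast markers to 4.87 to 11.3 normalised counts, 19.1 to 26.1, 64.5 to 86.3 and 39.2 to 60.2 in untreated, DAC, ATRA and DAC+ATRA libraries, whose part in any result was not tested.

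All 6 genes lie on the long arm of chromosome 1, in the cluster that holds most S100 genes, and coordinates are those of GRCh38. From left to right they are S100A11 (chr1:152032506-152047907, minus strand), S100A9 (chr1:153357854-153361023, plus strand), S100A12 (chr1:153373711-153375621, minus strand), S100A8 (chr1:153390032-153391073, minus strand), S100A6 (chr1:153534599-153536244, minus strand) and S100A4 (chr1:153543613-153550136, minus strand). The calgranulins are neighbours: 12.7 kb separate S100A9 from S100A12 and 14.4 kb separate S100A12 from S100A8. S100A6 lies 143.5 kb beyond S100A8, S100A4 lies 7.4 kb beyond S100A6, and S100A11 lies 1309.9 kb to the other side of S100A9. S100A9, S100A11 and S100A12 each have 1 counted transcript row. S100A8 has 2 rows, of which the first (ENST00000368733.4) held 89.26% of its reads. S100A6 has 3, of which 1 (ENST00000496817.5) held 97.48%, and S100A4 has 4, of which none held more than 43.62%. Reads that fit several rows of a gene appear to have been left out, so levels are lower limits and are not compared between genes. S100A4 overlaps S100A3 on the same strand, while S100A6 and S100A11 each overlap a long non-coding RNA gene on the other strand. The strand setting of the counting is not given in the sources used here.

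The calgranulins showed the widest range of the 6 genes. DAC raised S100A9 by 10.4-fold and S100A8 by 6.76-fold, S100A12 had its reads almost solely with DAC, and ATRA lowered S100A9 and S100A8 by 8.69-fold and 8.63-fold. With both drugs S100A9 stood near its untreated level and S100A8 below it. Their upstream sequences are shown because these 3 neighbouring genes each had their highest values with DAC. That of S100A11, which was also highest with DAC but rose by 1.5-fold, is shown beside them. Each run is the 250 bases before the RefSeq start site (build GRCh38.p14), read 5′ to 3′ on the gene's own strand, with CpG dinucleotides, the sites of DNA methylation, in capitals. The windows are chr1:153391074-153391323 (minus) for S100A8, chr1:153357604-153357853 (plus) for S100A9, chr1:153375622-153375871 (minus) for S100A12 and chr1:152037005-152037254 (minus) for S100A11.
S100A8: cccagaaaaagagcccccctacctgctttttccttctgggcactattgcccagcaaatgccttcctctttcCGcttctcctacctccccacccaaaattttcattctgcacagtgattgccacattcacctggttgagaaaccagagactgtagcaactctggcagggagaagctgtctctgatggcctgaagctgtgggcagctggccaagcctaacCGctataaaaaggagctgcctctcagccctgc
S100A9: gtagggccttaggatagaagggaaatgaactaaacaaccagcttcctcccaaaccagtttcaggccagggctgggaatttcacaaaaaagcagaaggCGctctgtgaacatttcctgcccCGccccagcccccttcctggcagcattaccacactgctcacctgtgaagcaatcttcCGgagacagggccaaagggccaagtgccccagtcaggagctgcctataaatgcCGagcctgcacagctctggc
S100A12: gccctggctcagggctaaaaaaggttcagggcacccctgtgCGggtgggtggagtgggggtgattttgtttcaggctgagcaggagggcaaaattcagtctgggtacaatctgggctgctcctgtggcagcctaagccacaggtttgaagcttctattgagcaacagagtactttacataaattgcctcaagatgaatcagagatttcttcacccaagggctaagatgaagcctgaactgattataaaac
S100A11: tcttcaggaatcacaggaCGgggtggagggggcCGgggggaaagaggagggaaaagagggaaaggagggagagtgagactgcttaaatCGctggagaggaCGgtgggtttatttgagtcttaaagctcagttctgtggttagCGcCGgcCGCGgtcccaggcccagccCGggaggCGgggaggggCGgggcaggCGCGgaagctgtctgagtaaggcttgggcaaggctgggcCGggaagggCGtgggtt

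CpG dinucleotides were sparse before the calgranulins. S100A12 had 1, S100A8 had 2 and S100A9 had 4, against a median of 11 over 35116 RefSeq promoters. Of those promoters, 14.7% held no more CpG than S100A12, 22.9% no more than S100A8 and 34.3% no more than S100A9. S100A4 had 7 (43.7% of promoters held no more) and S100A11 had 15 (59.0%). The S100A4 window matches a row with 40.52% of its reads, whereas the row with most reads (43.62%) begins downstream. S100A6 had 24 (78.4%), but its RefSeq start matches a row without reads, and the row with most of its reads begins inside that window. RefSeq lists 3 promoters for S100A8, and the one used matches the row with most reads. Methylation of these sites was not analysed here.

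**Figure D1:**
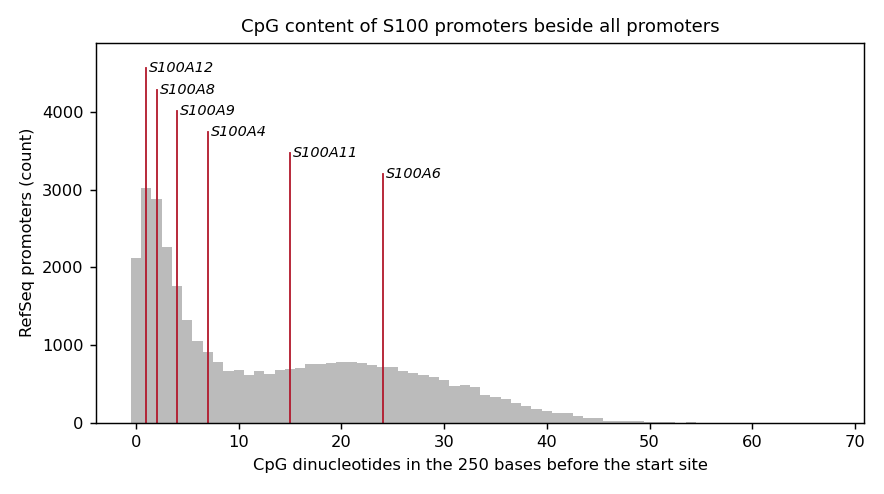
Bars count RefSeq promoters (y axis) by the number of CpG dinucleotides in the 250 bases before the start site (x axis), and red lines mark the 6 S100 genes. S100A12, S100A8 and S100A9 lie at 1, 2 and 4, left of the median of 11, and S100A11 and S100A6 lie at 15 and 24, right of it.

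Simple letter patterns were also counted in these windows, and a match is a description, not evidence of a site. TATAAA, the TATA box, on the gene's strand occurred in 6.8% of all promoters and in 4 of the 6, beginning 29 bases before the start in S100A8 and S100A9, 31 in S100A4 and 8 in S100A12. TTNNGNAA, a C/EBP-like pattern, on either strand occurred in 33.2% of all promoters. It was found 117 bases before the start of S100A8, 173 before S100A9, 94 and 77 before S100A12, 120 before S100A6, and 248 and 33 before S100A11. GAGGAA, a PU.1-like pattern, on either strand occurred in 23.6% of all promoters and lay 189 bases before S100A8 and 208 before S100A9. AGGTCA, the core letters of retinoic acid receptor sites, on either strand occurred in 12.1% of all promoters and, of the 6 genes, in S100A4 at 24 bases. The matches listed do not overlap one another.

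S100A9 had 467, 363 and 363 normalised counts in the untreated libraries (replicates 1 to 3), 3933, 3999 and 4425 with DAC, 41.2, 47.6 and 48.5 with ATRA, and 441, 466 and 441 with DAC+ATRA. Every DAC library lay above every other library and every ATRA library lay below every other one, whereas the untreated range overlapped that of DAC+ATRA. The group means were 398 ± 59.8, 4119 ± 267, 45.8 ± 3.98 and 449 ± 14.4 in untreated, DAC, ATRA and DAC+ATRA libraries (SD, n = 3 each). S100A9 thus spanned 89.98-fold between ATRA and DAC. As a share of the whole library it held 48.5 to 63.7 reads per M reads, 517 to 585, 5.50 to 6.50 and 56.2 to 63.7 in untreated, DAC, ATRA and DAC+ATRA libraries, so the order of the groups was the same without size factors.

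S100A8, its calprotectin partner, had 31.9, 30.0 and 39.5 normalised counts in untreated cells, 204, 274 and 208 with DAC, 3.58, 1.49 and 6.69 with ATRA, and 7.0, 12.4 and 20.4 with DAC+ATRA. No 2 groups overlapped in normalised counts, and the order was DAC, untreated, DAC+ATRA, ATRA. The gap between the last 2 was narrow, with 6.69 from 8 reads in ATRA replicate 3 and 7.0 from 5 reads in DAC+ATRA replicate 1. The group means were 33.8 ± 5.03, 229 ± 39.7, 3.92 ± 2.62 and 13.3 ± 6.76 for untreated, DAC, ATRA and DAC+ATRA (SD, n = 3 each). The counts behind the low groups were small, with 2 to 8 reads per ATRA library and 5 to 20 per DAC+ATRA library.

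S100A12 had reads almost solely with DAC, at 28.0, 26.7 and 18.5 normalised counts from 22, 17 and 17 reads. Untreated libraries had 0, 1 and 2 reads, ATRA libraries had 0 in each, and DAC+ATRA libraries had 1, 0 and 0. Each of these 9 libraries was at or below the floor of 3 reads per library, so folds are bounds. S100A12 was at least 11-fold higher with DAC than in untreated cells, although the DAC libraries were the shallower, and at least 6.88-fold lower with DAC+ATRA than with DAC. It passed the filter on low values only through its DAC libraries and therefore had to differ between groups. Between untreated, ATRA and DAC+ATRA no difference was detectable at this depth. In bulk RNA, a change in the number of cells that express a gene and a change in its RNA per cell cannot be told apart.

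**Figure D2:**
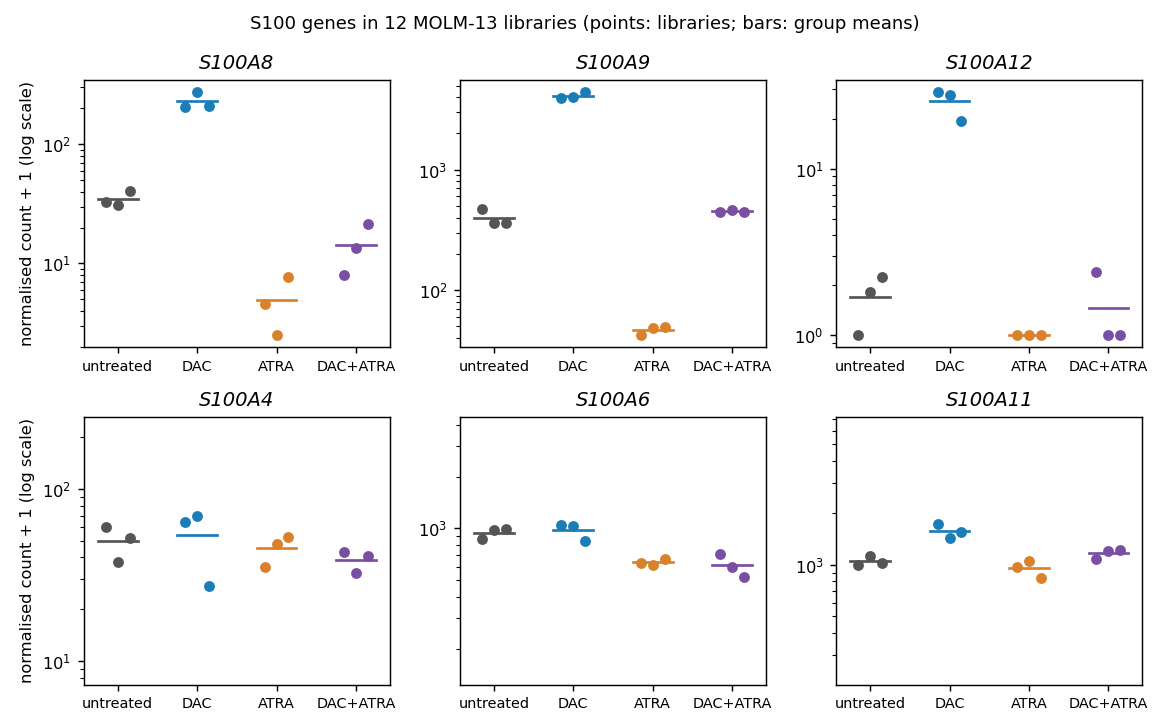
Each panel plots 1 S100 gene as normalised count + 1 (log scale, ranges differ between panels) in the 4 groups on the x axis, with a point per library and a bar at the group mean. S100A8 and S100A9 are highest in the 3 DAC libraries and lowest in the 3 ATRA libraries, S100A12 rises above the floor in DAC, and S100A4, S100A6 and S100A11 stay within a narrow range.

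S100A11, which binds annexin A1, had 991, 1120.4 and 1022 normalised counts in untreated cells, 1731, 1430.2 and 1549 with DAC, 968, 1055 and 832 with ATRA, and 1079, 1201 and 1210.0 with DAC+ATRA. The DAC libraries lay above all others, and the other 3 groups overlapped in part. Means were 1045 ± 67.6, 1570.2 ± 152, 952 ± 113 and 1163 ± 73.0 for untreated, DAC, ATRA and DAC+ATRA (SD, n = 3 each), so that DAC raised S100A11 by 1.5-fold.

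S100A6, also called calcyclin, had 864, 973 and 994 normalised counts in untreated cells, 1042, 1037 and 841 with DAC, 629.8, 615 and 664 with ATRA, and 714, 597 and 524 with DAC+ATRA. Libraries with ATRA, alone or with DAC, lay below all libraries without it. The means of 944 ± 69.7, 973 ± 114, 636 ± 24.8 and 611 ± 95.9 in untreated, DAC, ATRA and DAC+ATRA libraries (SD, n = 3 each) gave a level 1.48-fold lower with ATRA and 1.54-fold lower with DAC+ATRA than in untreated cells. The main transcript row held 95.04% to 99.27% of its reads in every library.

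S100A4, linked to cell motility and metastasis, had 59.1, 36.5 and 50.8 normalised counts in untreated cells, 63.6, 69.0 and 26.1 with DAC, 34.0, 46.9 and 51.8 with ATRA, and 42.0, 31.5 and 39.8 with DAC+ATRA. All 4 groups overlapped. DAC replicate 3 had the lowest value of all 12 libraries and DAC replicate 2 the highest, and no library held more than 81 reads. The group means ran from 37.8 ± 5.53 with DAC+ATRA to 52.9 ± 23.4 with DAC (SD, n = 3 each).

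Tests were made with limma on log2(normalised count + 1) over 10642 protein-coding genes, with p-values adjusted over all of them and a call at an adjusted p under 0.01. Changes below are log2 fold changes on that scale, which understates the change of genes with few reads. S100A12 had to differ between DAC and the other groups, because it passed the filter on low values only through its DAC libraries, so no test of it is given and it is left out of the counts of calls below. In DAC against untreated, S100A8, S100A9 and S100A11 of the other 5 genes were called higher and none lower, where 4.29% of all genes were called higher and 3.67% lower. S100A9 rose by 3.38 (SE 0.125, limma adjusted p = 1.29e-12) and ranked 25 among all genes by increase. S100A8 rose by 2.72 (SE 0.395, limma adjusted p = 8.52e-05) and S100A11 by 0.59 (SE 0.113, limma adjusted p = 0.00135). Without untreated replicate 1, S100A11 rose by 0.55 and missed the threshold (limma adjusted p = 0.0103). S100A6 (0.04, 95% interval -0.22 to 0.30) and S100A4 (0.02, 95% interval -0.65 to 0.70) did not pass the test, and the wide interval of S100A4 leaves changes of up to 0.70 in size unresolved.

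In ATRA against untreated, S100A8, S100A9 and S100A6 of the 5 genes were called lower and none higher, where 14% of all genes were called lower and 12.1% higher. S100A9 fell by 3.08 (SE 0.125, limma adjusted p = 3.18e-13) and ranked 96 among all genes by decrease. S100A8 fell by 2.96 (SE 0.395, limma adjusted p = 6.67e-06) and S100A6 fell by 0.57 (SE 0.125, limma adjusted p = 0.00134). S100A11 changed by -0.14 (95% interval -0.38 to 0.10, limma adjusted p = 0.369) and S100A4 by -0.13 (95% interval -0.81 to 0.54, limma adjusted p = 0.785), neither of which passed. No fold is given for S100A12, whose libraries were at the floor in both groups.

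In DAC+ATRA against untreated, S100A6 and S100A8 of the 5 genes were called lower and none higher, where 14.4% of all genes were called lower and 14.5% higher. S100A6 fell by 0.63 (limma adjusted p = 0.00046). S100A8 fell by 1.39 (SE 0.395, limma adjusted p = 0.00839), close to the threshold. That call was lost without untreated replicate 1 (adjusted p = 0.0221), 2 (0.0194) or 3 (0.0356), without DAC replicate 1 (0.0119) or 2 (0.0116), and without DAC+ATRA replicate 1 (0.056) or 2 (0.023), all by limma. S100A9 differed by 0.19 (95% interval -0.08 to 0.45, limma adjusted p = 0.255) and S100A11 by 0.16 (95% interval -0.08 to 0.39, limma adjusted p = 0.292), and neither passed. S100A4 differed by -0.35 (95% interval -1.02 to 0.33).

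Set against DAC alone, DAC+ATRA lowered S100A9 by 9.17-fold and S100A8 by 17.2-fold. Of the 5 genes counted, S100A8, S100A9, S100A6 and S100A11 were called lower and none higher, where 9.74% of all genes were called lower and 9.04% higher. The log2 changes were -4.11 for S100A8 (limma adjusted p = 1.4e-07), -3.19 for S100A9 (limma adjusted p = 3.78e-13), -0.67 for S100A6 (limma adjusted p = 0.000393) and -0.43 for S100A11 (limma adjusted p = 0.00702). The call of S100A11 was lost without untreated replicate 2 (adjusted p = 0.0107), DAC replicate 1 (0.0301) or DAC+ATRA replicate 1 (0.0393), 2 (0.0191) or 3 (0.0177), all by limma. It was also lost with TMM factors (-0.40, limma adjusted p = 0.01) and in a fit of only the compared groups (limma adjusted p = 0.0164). S100A4 differed by -0.37 (95% interval -1.04 to 0.30) and did not pass.

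Set against ATRA alone, DAC+ATRA raised S100A9 by 9.82-fold and S100A8 by 3.38-fold. These were the calls among the 5 genes counted, where 6.47% of all genes were called higher and 5.46% lower. S100A9 rose by 3.27 on the log2 scale (limma adjusted p = 1.54e-12) and ranked 26 by increase. S100A8 rose by 1.57 (SE 0.395, limma adjusted p = 0.00756), a call lost without untreated replicate 1 (adjusted p = 0.0106), 2 (0.0117) or 3 (0.0103), DAC replicate 1 (0.0108) or 2 (0.0109), ATRA replicate 1 (0.0161) or 2 (0.0526), or DAC+ATRA replicate 2 (0.026) or 3 (0.0552), all by limma. S100A11 differed by 0.29 (95% interval 0.06 to 0.53, limma adjusted p = 0.0717), S100A6 by -0.07 (95% interval -0.33 to 0.19) and S100A4 by -0.21 (95% interval -0.88 to 0.46), and none of these passed. Several of these comparisons share the same libraries and are not independent of each other.

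**Figure D3:**
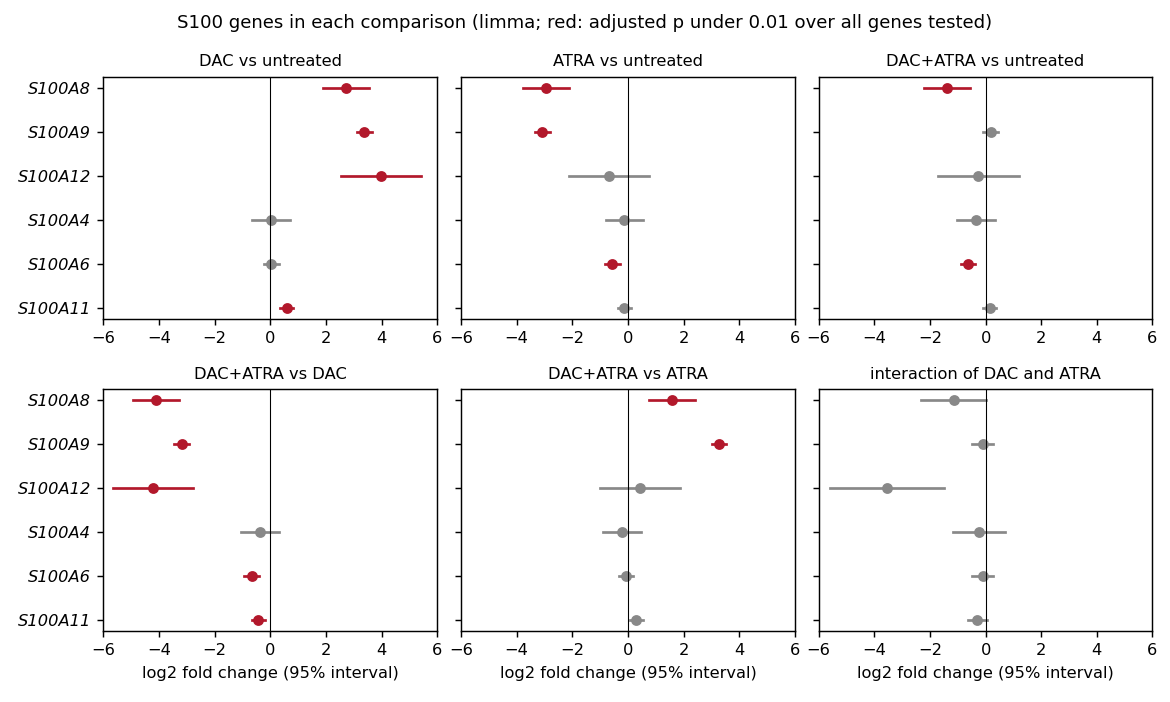
Points are limma log2 fold changes (x axis, bars are 95% intervals) of the 6 S100 genes (y axis) in 6 comparisons, red where the adjusted p over all genes was under 0.01. S100A9 has narrow intervals at 3.38 with DAC and -3.08 with ATRA and spans 0 with DAC+ATRA, while S100A12 and S100A4 have the wide intervals of genes with few reads, and S100A12, drawn red with DAC and against DAC, had to differ there by the filter.

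The interaction, which subtracts the DAC effect seen without ATRA from that seen with it, asked whether the drugs combined additively on the log2 scale. For S100A9 the DAC effect was 3.38 without and 3.27 with ATRA, a difference of -0.11 (95% interval -0.48 to 0.26, limma adjusted p = 0.858). This 95% interval reaches a departure of 0.48 from additivity and is no hard limit. The interaction also holds the untreated libraries, so the drugs and the difference in time labels cannot be told apart in it either. For S100A8 the DAC effect was 2.72 without and 1.57 with ATRA, a difference of -1.15 (95% interval -2.32 to 0.02, limma adjusted p = 0.35). S100A11 gave -0.29 (95% interval -0.63 to 0.04), S100A6 -0.11 (95% interval -0.48 to 0.26) and S100A4 -0.24 (95% interval -1.19 to 0.72). For S100A12, with 3 groups at the floor, the fitted value depends on the pseudocount and is not given. Of the 5 genes other than S100A12, none passed the threshold with limma, edgeR or DESeq2, where 1.6% of all genes passed in limma. A count of 0 among 5 lies near that share and is no result about the genes. At an unadjusted limma p under 0.05, 0 of the 5 genes other than S100A12 passed.

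**Figure D4:**
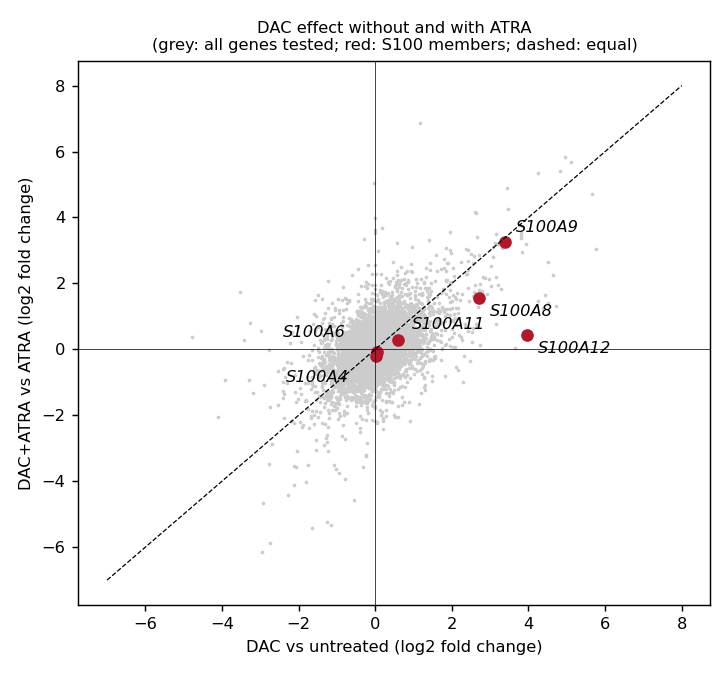
The x axis is the DAC effect without ATRA and the y axis the DAC effect with ATRA, both as log2 fold changes, with grey points for all 10642 genes tested, red points for the S100 genes and a dashed line where both effects are equal. S100A9 lies on the line at 3.38 and 3.27, and S100A8 below it at 2.72 and 1.57. S100A12 was near the floor in 3 groups, so its position depends on the pseudocount and is not read.

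Calprotectin is made of both S100A8 and S100A9, so their ratio was followed across the groups. The log2 ratio of S100A9 to S100A8, each + 1, was 3.52 ± 0.332, 4.18 ± 0.283, 3.39 ± 0.818 and 5.09 ± 0.711 in untreated, DAC, ATRA and DAC+ATRA libraries (SD, n = 3 each). The DAC+ATRA libraries, at 4.37 to 5.79, overlapped the DAC libraries, at 3.86 to 4.41, and lay above the untreated ones, at 3.17 to 3.83. The size of this ratio has no meaning for the protein, because both genes were counted over different parts of their transcripts.

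Over the 12 libraries, Pearson's r between log2 levels was 0.933 for S100A8 and S100A9, 0.881 for S100A9 and S100A11, 0.865 for S100A8 and S100A12, and 0.855 for S100A9 and S100A12. S100A6 followed S100A8 at 0.743, and S100A4 followed the others at 0.011 to 0.461. These values describe 12 libraries in 4 groups that share treatments and depth. Those of S100A12, which had reads almost solely with DAC, follow largely from that.

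The genes whose pattern lay closest to each S100 gene, of all 10642, were also listed as a description over the same 12 libraries. For S100A9 they were MT1X (r = 0.988), F12 (r = 0.983) and MT1H (r = 0.982). MT1X and MT1H encode metallothioneins, which bind zinc and copper, and MT1X had mean normalised counts of 679, 1899, 301 and 721 in untreated, DAC, ATRA and DAC+ATRA libraries. For S100A8 they included CES1 (r = 0.975) and PLCD3 (r = 0.968). For S100A12 they were ADAMTS20 (r = 0.966), PADI4 (r = 0.944) and FAM135B (r = 0.944). Because S100A12 passed the filter only through its DAC libraries, genes high with DAC had to head its list. PADI4, the enzyme that citrullinates histones in granulocytes, had means of 5.78, 152, 1.41 and 4.80 in the same order of groups.

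Among the patterns closest to that of S100A6 were the potassium channel KCNN4 (r = 0.970) and the ATP receptor P2RX1 (r = 0.951). P2RX1 showed the split by ATRA plainly, with means of 1803 in untreated and DAC and of 306 and 307 in ATRA and DAC+ATRA libraries. Those closest to S100A11 included NFAM1 (r = 0.945) and PDIA5 (r = 0.945). S100A4 lay closest to TNFAIP8L1 (r = 0.860), MZT2A (r = 0.822) and RPLP2 (r = 0.822).

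Of 14 other S100 genes with a row, 4 passed the filter on low values. Of the other 10, 4 had no read and none of the rest exceeded 10 reads in a library. S100P, which lies outside the cluster on another chromosome, moved in the same directions as S100A8. It had 204, 174 and 227 normalised counts in untreated cells, 888, 866 and 737 with DAC, 16.1, 18.6 and 12.5 with ATRA, and 129, 82.2 and 72.5 with DAC+ATRA. No groups overlapped, and relative to untreated cells S100P rose by 2.04 with DAC (limma adjusted p = 1.56e-06). It fell by 3.60 with ATRA (limma adjusted p = 6.34e-11) and, under the pair of drugs, fell by 1.12 (limma adjusted p = 0.000259).

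S100A10, the partner of annexin A2, was, like S100A6, called lower with ATRA and with DAC+ATRA. Its means were 357 ± 36.5, 324 ± 80.1, 151 ± 10.5 and 67.1 ± 1.67 in untreated, DAC, ATRA and DAC+ATRA libraries (SD, n = 3 each). It fell by 1.24 with ATRA (limma adjusted p = 1.08e-05) and fell by 2.39 with DAC+ATRA (limma adjusted p = 1.74e-09), and DAC+ATRA lay 1.15 below ATRA alone on the log2 scale. S100B, best known from glia, passed the filter only through the groups with DAC and therefore had to differ, with means of 1.31, 12.6, 4.21 and 16.1 in untreated, DAC, ATRA and DAC+ATRA libraries. S100A13 was called in none of the comparisons, with means of 12.4 to 23.8.

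A list of 47 protein-coding genes between S100A10 and S100A1 that are no S100 genes, most of them genes of the skin barrier, gave no result. Of these, 46 had a row, 9 had any read, none exceeded 3 reads in a library and none was tested.

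Receptors and binding partners of S100 proteins were higher more often than lower. Of 25 listed, 22 were tested, and in DAC against untreated 5 were called higher and 0 lower (median log2 change 0.39, against -0.004 over all genes), where 4.29% of all genes were called higher and 3.67% lower. In ATRA against untreated 8 were higher and 1 lower (median 0.67, against -0.04), where 12.1% and 14% of all genes were. In DAC+ATRA 10 were higher and 0 lower (median 0.74, against -0.004), where 14.5% and 14.4% of all genes were. TLR4, the receptor of calprotectin on myeloid cells, was called higher in all 3, with means of 478 ± 28.2, 821 ± 95.2, 931 ± 56.5 and 992 ± 46.3 in untreated, DAC, ATRA and DAC+ATRA libraries (SD, n = 3 each). AGER had no read in any library. CYBB, the catalytic subunit of the NADPH oxidase to which calprotectin delivers arachidonic acid, was high wherever DAC was given, with means of 953 ± 71.0, 5575 ± 856, 1042 ± 147 and 6385 ± 167 in the same order. It rose by 2.54 with DAC (limma adjusted p = 4.38e-11) and by 2.75 with DAC+ATRA (limma adjusted p = 1.05e-12), and changed by 0.12 with ATRA (limma adjusted p = 0.464).

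ITGAM and CD36, a myeloid integrin chain and a fatty acid receptor of monocytes, were called higher with each treatment. ITGAM passed the filter on low values through its treated libraries, so its calls and its place in the counts are not evidence. ITGAM had means of 9.58 ± 3.70, 26.8 ± 7.20, 57.3 ± 8.63 and 46.1 ± 8.19 in untreated, DAC, ATRA and DAC+ATRA libraries, and CD36 had 232 ± 3.38, 405 ± 63.3, 516 ± 114 and 946 ± 51.2 (SD, n = 3 each). ANXA2, the partner of S100A10, was called in none of the comparisons, and CACYBP, the partner of S100A6, was the 1 gene called lower with ATRA (-0.45, limma adjusted p = 0.00818).

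Of 15 myeloid transcription factors, all tested, 1 was called higher and 3 lower with DAC (median -0.29), 5 higher and 5 lower with ATRA (median 0.25), and 3 higher and 4 lower with DAC+ATRA (median -0.04). Over all genes the shares called higher and lower were 4.29% and 3.67% with DAC, 12.1% and 14% with ATRA, and 14.5% and 14.4% with DAC+ATRA, with medians of -0.004, -0.04 and -0.004. CEBPE, a regulator of late granulocyte genes, was the 1 listed factor called in the same direction as S100A9 with each single drug. Its means were 315 ± 29.3, 1627 ± 174, 96.5 ± 2.75 and 806 ± 21.2 in untreated, DAC, ATRA and DAC+ATRA libraries (SD, n = 3 each). It rose by 2.37 with DAC (limma adjusted p = 7.97e-11), fell by 1.69 with ATRA (limma adjusted p = 8.51e-10) and, other than S100A9, lay 1.36 above untreated with DAC+ATRA (limma adjusted p = 2.3e-08). FOS rose by 2.30 with ATRA (limma adjusted p = 6.75e-10), and MYB, a factor of immature cells, fell by 2.23 (limma adjusted p = 1.09e-07).

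Genes that monocytes express beside the calgranulins did not move as 1 group. Of 20 listed, 16 were tested, and 6 were called higher and 0 lower with DAC (median 0.43), 7 higher and 5 lower with ATRA (median 0.62), and 6 higher and 4 lower with DAC+ATRA (median 0.08). The shares of all genes called higher and lower were again 4.29% and 3.67%, 12.1% and 14%, and 14.5% and 14.4%, and the medians -0.004, -0.04 and -0.004, for the same 3 treatments. CD14, CD36 and ITGAM stand in both this list and that of the receptors and partners. LYZ, which encodes lysozyme, rose with DAC and fell with ATRA as S100A9 did, with 41628 ± 6449, 153287 ± 27169, 6819 ± 2250.1 and 40819 ± 2365 in untreated, DAC, ATRA and DAC+ATRA libraries (SD, n = 3 each). It rose by 1.88 with DAC (limma adjusted p = 7.66e-07), fell by 2.65 with ATRA (limma adjusted p = 6.45e-10) and differed by -0.02 with DAC+ATRA (limma adjusted p = 0.95).

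FCN1, which encodes the secreted lectin ficolin-1, was, like S100A12, high with DAC, and it passed the filter on low values through its DAC libraries. Its means were 8.66 ± 4.77, 110.5 ± 6.29, 1.77 ± 2.38 and 1.74 ± 2.11 in untreated, DAC, ATRA and DAC+ATRA libraries (SD, n = 3 each). CLEC7A, a receptor for fungal glucans, passed the filter through its libraries without ATRA, with means of 15.7 ± 4.26, 22.2 ± 5.99, 2.16 ± 1.23 and 1.15 ± 1.04 in the same order. Both genes therefore had to differ between groups. They and ITGAM, which passed the filter through its treated libraries, stand in the counts of the list without being evidence for them.

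**Figure D5:**
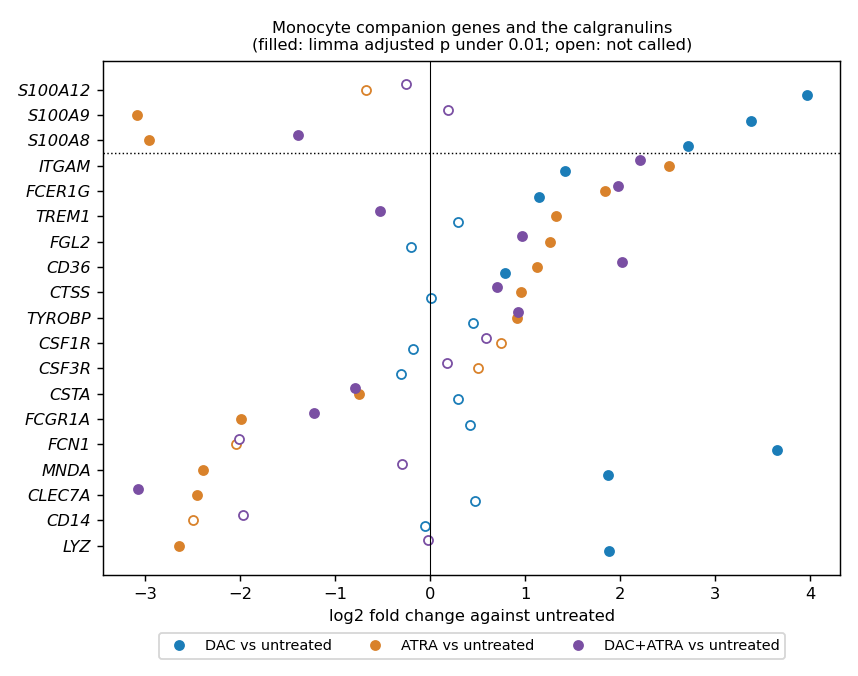
Points are limma log2 fold changes against untreated (x axis) of the 3 calgranulins and of the 16 monocyte genes tested (y axis), blue for DAC, orange for ATRA and purple for DAC+ATRA, filled where the adjusted p was under 0.01. LYZ lies right of 0 with DAC, left with ATRA and near 0 with DAC+ATRA as S100A9 does. CD36 and ITGAM lie right of 0 with all 3 treatments. ITGAM, S100A12, FCN1 and CLEC7A passed the filter on low values through the groups where they were high. These genes had to differ between groups, so their filled points are not evidence.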

How the data were processed

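Strand-specific, ribosomal RNA-depleted RNA-seq covered 12 MOLM-13 libraries. Per the labels and methods, the authors used STAR for alignment to hg38, counted reads per transcript with htseq-count (annotation and versions not given in the sources used here) and used DESeq2. The deposited table of 100502 rows is a normalised signal, in which the authors divided reads by size factors. All values (100%) were whole reads within 0.001 of a read. Columns named CTRL were taken as untreated, and 0 value columns were unused. Rows were summed per symbol, and 88.9% matched GENCODE 44.

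Protein-coding genes that reached a minimum of 10 normalised counts in 3 or more libraries entered limma 3.58.1 (R 4.3.3, lmFit, eBayes with trend) on log2(value + 1), with all 12 libraries in 1 fit, no covariate and Benjamini-Hochberg adjustment over all 10642 genes. A call needed an adjusted p under 0.01. The script was tested on simulated data. The members and lists were chosen with earlier results of these data known. Named were the members, other S100 genes that passed the filter, up to 3 called genes per list with the largest change against untreated, and the 3 closest patterns per member, of which some are not reported here. TLR4, AGER, ANXA2 and CACYBP were named after their values were seen. Library depth of 4.67 to 11.9 M reads limits genes with few reads. Alternatives were edgeR 4.0.16 and DESeq2 1.42.0 on recovered reads, other scalings, filters, pseudocounts, gene sets and thresholds, only the compared groups, the transcript row with most reads, a replicate block, and each library left out.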

Additional observations from a re-analysis of the deposited data

Results flagged for a closer look

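In 5 of the 54 distinct genes tested from the lists around the S100 genes, the DAC effect differed with and without ATRA by the interaction test (limma, adjusted over all genes), which 1.6% of all genes passed. Of the 5 S100 genes other than S100A12, none passed that test. The test also holds the untreated libraries, so the difference in their time labels enters it. ANXA1, a partner of S100A11, had an interaction of -1.14 on the log2 scale (adjusted p = 0.00184). The transcription factors KLF4 and FOS had interactions of -2.64 (adjusted p = 6.24e-05) and -1.31 (adjusted p = 0.00146). KLF4 had means of 41.7 normalised counts, 65.4, 200 and 47.6 in untreated, DAC, ATRA and DAC+ATRA libraries, so its rise with ATRA was not seen when DAC was present. CEBPA had a positive interaction of 0.93 (adjusted p = 0.00814). TREM1, a receptor of monocytes, had -2.14 (adjusted p = 3.44e-06), with means of 155, 189, 389 and 107 in the same order of groups.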

How the results depend on the processing

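Of 887 values of the 6 genes under the alternatives, 834 kept direction and side of the threshold, 34 lost the call and 3 gained one. The other 16 turned direction, all in S100A4 or S100A6 where no call was made. Direction was judged on values rounded to 2 decimals, so a value that rounded to 0 counted as kept. An example is S100A4 in DAC against untreated, at -0.003 with scaling by total counts. S100A9 kept every call, at 3.32 to 3.50 with DAC and -3.15 to -2.96 with ATRA. The number of the 6 genes called with DAC+ATRA against untreated was 1 in place of 2 without a filter, with a pseudocount of 0.1 and with the transcript row with most reads, and 1 to 2 when 1 library was left out. Against ATRA it was 1 in place of 2 with edgeR, without a filter, with a pseudocount of 5, with only the compared groups and with the row with most reads, and 1 to 2 when 1 library was left out. In both, S100A8 was the gene lost. These counts include S100A12, which had to differ between DAC and the other groups. For the interaction the count was 1 in place of 0 without a filter, with a pseudocount of 5 and at a threshold of 0.05. The gene gained was S100A12, whose fitted value depends on the pseudocount, so that call is no result. Leaving out 1 library gave 3 to 4 calls for DAC, 3 for ATRA, 4 to 5 against DAC and 0 for the interaction. The causes were not tested.

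Turned directions were, for S100A4, -0.022 with TMM factors and -0.17 with the row with most reads in DAC against untreated, and 0.032 against DAC, 0.44 against ATRA and 0.61 in the interaction with that row. For S100A6, TMM factors gave -0.006 with DAC. Leaving out 1 library moved S100A4 between -0.22 and 0.46 with DAC, between -0.324 and 0.041 with ATRA and between -0.672 and 0.012 in the interaction. It moved S100A6 between -0.022 and 0.142 with DAC and between -0.186 and 0.037 against ATRA.

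Same-numbered libraries of different groups correlated in their deviations from group means at -0.263 to 0.114 over 18 pairs, of which 2 exceeded 0.1. No unit shared by number was seen, but 3 libraries per group cannot exclude one. With the replicate number as a block, 4 of the 6 genes were called against DAC in place of 5, S100A11 at -0.43 having an adjusted p of 0.0132, and no other call of a gene changed. That call was also lost with TMM factors (-0.40, adjusted p = 0.01) and with only the compared groups (adjusted p = 0.0164).

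S100A12 was not tested with a minimum of 50 normalised counts, and DESeq2 gave it no adjusted p for the interaction. The small read numbers of S100A12, S100A8 with ATRA and S100A4 give wide intervals, and the 3 libraries per group are technical replicates of 1 line.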
